A study of Homo sapiens with 3 samples.

Results

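The genes described here are 55 human genes of ribosome biogenesis and the nucleolus, measured by RNA sequencing in MIAPaCa-2 cells, a line established from a human pancreatic carcinoma. They were chosen by name, as a list of known assembly factors, with earlier results of these data known; no measured value entered the rule. All 55 were found among the 14949 genes analysed. Each gene was placed in 1 of 7 roles: 6 abundant nucleolar proteins, 5 genes of the RNA polymerase I machinery, 5 core proteins of small nucleolar ribonucleoproteins (snoRNPs), 15 factors of the small-subunit (SSU) processome, 8 late factors of the small subunit, 15 factors of the large subunit, and FTSJ1.

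The study asked how gene expression in cells with less METTL3, the catalytic subunit of the main N6-methyladenosine (m6A) writer of messenger RNA, compares with that in cells given an inhibitor of PLK1, a kinase needed in mitosis. The sh-CTL library came from cells with a control short hairpin and is labelled as untreated. The sh-METTL3 library came from cells with a hairpin against METTL3, also labelled as untreated. The sh-CTL + PLK1i library came from control-hairpin cells exposed to 80 nM NMS-P937, a selective PLK1 inhibitor, for 24 h. No vehicle is named in the labels of these libraries. All cells shared the MIAPaCa-2 background, grew in DMEM with serum and carried a hairpin, and the labels do not say whether the hairpin lines are clones or pools. Each group had 1 library, so no difference has a replicate check, no p-value was computed, and an effect of the condition cannot be told apart from a difference between cultures or hairpin lines.

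The depth was between 37449317 reads, in sh-CTL, and 47727534, in sh-CTL + PLK1i. METTL3 had 3378 reads in sh-CTL against 1781 in the library labelled sh-METTL3, a level of 41.9% after normalization. With the inhibitor it had 4223 reads, a level of 98.7% of sh-CTL after normalization. PLK1 had 6910, 5638 and 9249 reads in the same order. After normalization its level was 64.9% of sh-CTL in sh-METTL3 and 106% with the inhibitor. The labels call the cells epithelial, and the keratin genes KRT8, KRT18 and KRT19 had at least 3361 reads in every library. EPCAM and CDH1, which define epithelial cells more closely, were not among the genes analysed here, and VIM, a mesenchymal filament gene, had at least 199813 reads. Of the 21 markers checked, 8 were listed, and CDH2, PTPRC, CD3E, PECAM1, VWF, DCN and the acinar and endocrine markers were not among them. The other fibroblast markers were listed: COL1A2 had 44100, 44201 and 44493 reads in sh-CTL, sh-METTL3 and sh-CTL + PLK1i, a log2 difference of -0.33 in both comparisons, and COL1A1 had 34, 6 and 36 reads. CD68, a lysosomal gene also used as a macrophage marker, had 1505, 3499 and 2875 reads in the same order. The part of these markers in the values below was not tested.

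Ribosomes are assembled mainly in the nucleolus. RNA polymerase I makes a long precursor of the ribosomal RNAs there, snoRNPs modify it, and the SSU processome folds and cuts it while other factors build the large subunit. Late factors then leave with the small subunit to the cytoplasm, where the last cut is made. Dividing cancer cells make many ribosomes, and genes of this pathway are well-known targets of the transcription factor MYC. MYC and its relatives bind the E-box, the sequence CACGTG, so the promoters were read first.

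RefSeq promoter windows, which run from 250 bases before to 50 bases after an annotated start on GRCh38.p14, were available for 47 of the 55 genes, 57 windows in all. NOP58, NOLC1, BOP1, RRP1B, RRP12, RRS1, DDX18 and MPHOSPH10 were without an entry. CACGTG, which reads the same on both strands, occurred in 36.8% of the windows of these genes, against 9.34% of the windows of all listed genes and 7.26% of all 35116 windows. Counted by gene, 21 of 47 had it, which is 44.7% against 12.6% of listed genes. CCGGAA, the core that ETS factors bind, was searched on both strands and occurred in 50.9% of the windows against 27.1% for listed genes and 17.2% for all windows. The GC box GGGCGG, on both strands, occurred in 70.2% of the windows against 66.6% and 45.0%. In the windows of 110 other ribosome biogenesis genes, described below, the shares were 24% for CACGTG, 58.4% for CCGGAA and 58.4% for GGGCGG. By gene, 26.4% of these 110 had CACGTG. A match is a run of letters in a window and shows no binding. The windows below belong to the 8 genes with CACGTG that were highest in sh-CTL + PLK1i relative to sh-CTL among those with the whole motif before or within the first 30 bases past the start. GAR1, at 0.31, and LTV1, at 0.28, were left out because their motifs reach past that point. Each is written 5′ to 3′ on the strand of the gene, with CACGTG in capitals.
LYAR (chr4:4290053-4290112, minus strand): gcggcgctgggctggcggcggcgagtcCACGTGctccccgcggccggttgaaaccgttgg
PNO1 (chr2:68157870-68157917, plus strand): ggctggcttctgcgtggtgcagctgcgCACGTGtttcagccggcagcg
SDAD1 (chr4:75991141-75991195, minus strand): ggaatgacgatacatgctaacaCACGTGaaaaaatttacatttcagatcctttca
GNL2 (chr1:37595908-37595961, minus strand): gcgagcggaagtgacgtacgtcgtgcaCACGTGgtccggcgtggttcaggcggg
DDX21 (chr10:68956589-68956648, plus strand): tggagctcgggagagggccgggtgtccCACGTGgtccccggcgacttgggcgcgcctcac
NOP10 (chr15:34343115-34343174, minus strand): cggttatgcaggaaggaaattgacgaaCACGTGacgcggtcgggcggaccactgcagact
UTP4 (chr16:69132606-69132665, plus strand): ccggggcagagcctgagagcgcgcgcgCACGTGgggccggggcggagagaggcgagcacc
MRTO4 (chr1:19251792-19251834, plus strand): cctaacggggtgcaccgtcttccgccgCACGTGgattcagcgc
The motif began 64 bases before the start in LYAR, 31 before it in DDX21, 16 before it in UTP4 and 11 before it in NOP10. NOP10 had a further copy 170 bases before its start. The 21 genes with CACGTG had a median difference of 0.16 on the log2 scale between sh-CTL + PLK1i and sh-CTL, and the 26 genes without it had one of 0.17.

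In all 3 libraries these genes were abundant. Every one of the 55 lay above the median of all genes, with a mean normalized count over the libraries whose median was 4809 against 906, and the lowest count was 833 reads for GAR1 in sh-CTL. Levels between genes were compared as reads per kilobase of transcript scaled to library size (RPKM), for the 54 genes with an annotated length; BOP1 had none. In sh-CTL the level per length ran from 9.92 in UTP15 to 1728 in NPM1, with a median of 38.6. NPM1, a histone chaperone that organises the outer nucleolus, stood far above NCL, which binds the ribosomal RNA precursor and had an RPKM of 410, and NOP56, with 205. Together the 55 genes took 1.09% of all reads in both untreated libraries and 1.18% after the inhibitor. NCL and NPM1 alone made up 35.7%, 37.6% and 34.1% of these reads in the order sh-CTL, sh-METTL3 and sh-CTL + PLK1i.

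**Figure D1:**
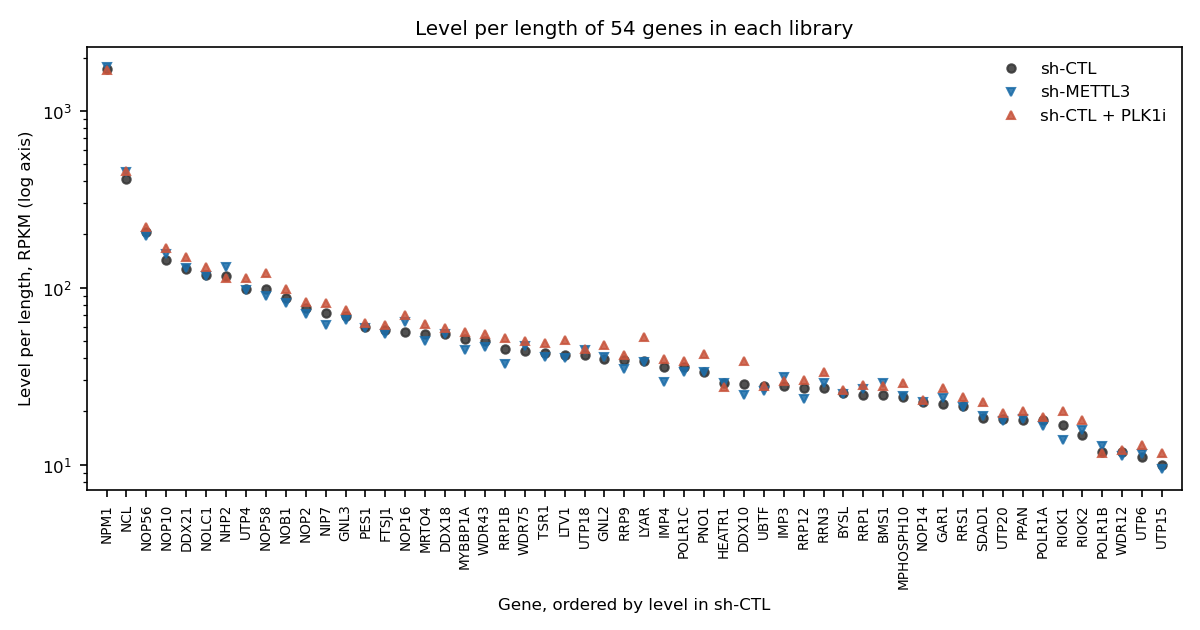
RPKM (log axis) for the 54 genes with an annotated length, ordered by their level in sh-CTL, with 1 point per library (circles, sh-CTL; downward triangles, sh-METTL3; upward triangles, sh-CTL + PLK1i). NPM1 stands at 1728 in sh-CTL and UTP15 at 9.92, and for most genes the upward triangle is the highest point.

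The order of the libraries was uneven. Of the 55 genes, 48 were highest in sh-CTL + PLK1i, 5 in sh-METTL3 and 2 in sh-CTL. Over all genes those shares were, in that order, 34.4%, 39.4% and 26.2%. The lowest level lay in sh-METTL3 for 33 genes, in sh-CTL for 18 and in sh-CTL + PLK1i for 4, which is 60.0%, 32.7% and 7.27% of them against 39.0%, 27% and 34.0% of all genes. Over the 9074 genes whose mean normalized count reached 500, the lowest level lay there for 42.9%, 24.9% and 32.2%. Of those 9074, 37.5% were highest in sh-CTL + PLK1i, 36.3% in sh-METTL3 and 26.2% in sh-CTL. These are relative levels in bulk RNA, in which a different mix of cells, such as more cells in 1 phase of the cell cycle, and a different level per cell cannot be told apart.

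Setting sh-CTL + PLK1i against sh-CTL addresses what PLK1 inhibition does to the transcripts of these genes. Differences are of log2(normalized count + 1), with a 95% exact interval of the read ratio that covers counting error only. Of the 55 genes, 50 lay above 0, against 50.5% of all genes, and the median difference was 0.17, a fold of 1.12, against 0.00 over all genes and 0.01 over the 9074 genes whose mean normalized count reached 500. The differences were small and close together. They ran from -0.07 to 0.47 with an SD of 0.11 over the genes, against 0.19 over the abundant ones, and the intervals of 45 genes, 81.8%, lay above 0, those of 2 below it, and those of 8 on both sides, against 23.1% above and 22.8% below over all genes and 29.9% and 27.8% over the abundant genes. A gene was called higher or lower where its level was at least 25% above that in sh-CTL or, by the same fold, at least 20% below it. By this rule 4 genes were called higher, 7.27% of the 55 against 10.2% of all genes, and 0 lower, against 11.5%. With a smaller fold, 15% above or 13.0% below, 20 genes were higher, 36.4% of the 55 against 18.3% of all genes and 11.2% of the abundant ones. By the same fold 0 were lower, against 19.5% of all genes and 11.5% of the abundant ones. No gene reached 1.5-fold.

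Setting sh-METTL3 against sh-CTL addresses what reduced METTL3 does to them. Of the 55 genes, 21 lay above 0, against 50.2% of all genes, and 34 below it. The median difference was -0.03, a fold of 0.978, against 0.00 over all genes and -0.02 over the more abundant genes. Differences ran from -0.29 to 0.22 with an SD of 0.12, against 0.32 over the more abundant genes. By the 25% and 20% rule 0 of the 55 genes were called higher and 0 lower, against 15.8% and 14.5% of all genes. With the smaller fold, 1 gene was higher and 7 were lower, 1.82% and 12.7% of the 55. Those shares were 23.6% and 23.0% over all genes and 14.2% and 18.7% over the more abundant genes. The intervals of 13 genes, 23.6%, lay above 0, those of 22, or 40%, below it and those of 20 on both sides. Over all genes 27.1% lay above and 28.2% below, and over the abundant genes 29.9% and 35.4%, so these shares were close to those of abundant genes. Genes with fewer reads spread more widely, so the all-gene shares are those of a less abundant set. Among the 9074 abundant genes, 6.90% were called higher and 9.35% lower in sh-METTL3, and 3.70% and 4.32% in sh-CTL + PLK1i. Both comparisons use the same sh-CTL library.

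**Figure D2:**
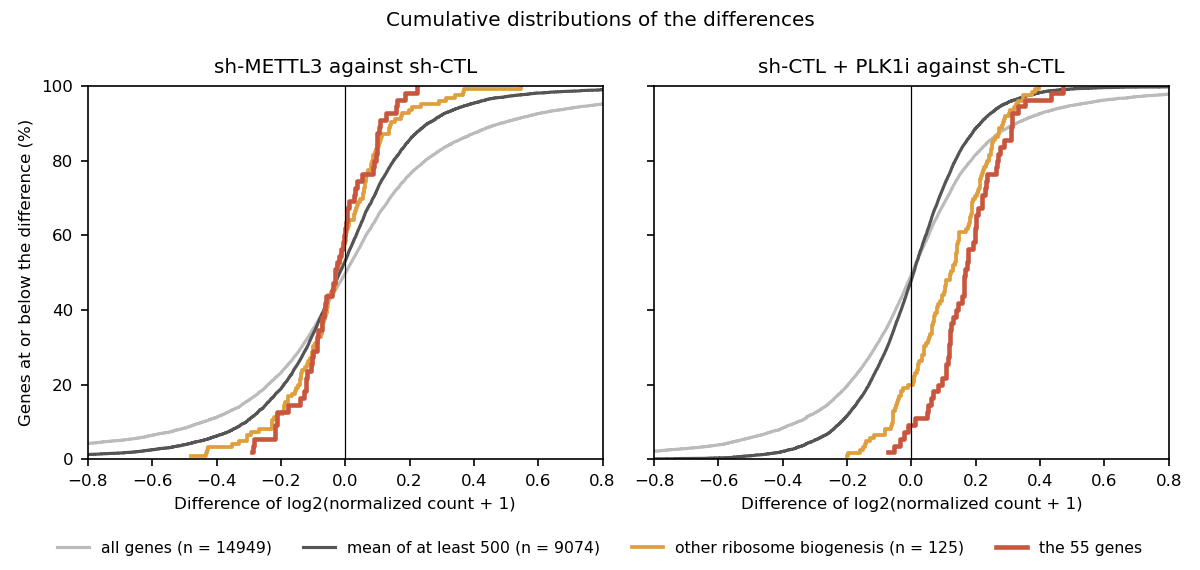
Share of genes (vertical axis, percent) at or below each difference of log2(normalized count + 1) (horizontal axis) for the 55 genes, 125 other ribosome biogenesis genes, the 9074 genes whose mean reached 500 and all 14949 genes, in each comparison. In sh-CTL + PLK1i the curve of the 55 genes lies to the right, with its median at 0.17 against 0.00 for all genes, and in sh-METTL3 it crosses near 0 and is steeper than that of all genes.

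Among the nucleolar proteins the highest gene of all was LYAR, a zinc finger protein of the nucleolus tied to cell growth (ENSG00000145220; GRCh37 chr4:4269428-4291881, minus strand). Its normalized counts, in the order sh-CTL, sh-METTL3 and sh-CTL + PLK1i used from here on, were 2598, 2575 and 3601. Both untreated libraries lay close together, and the inhibitor library stood at 139% of sh-CTL, a difference of 0.47 (0.40 to 0.55). DDX21, an RNA helicase of ribosomal RNA synthesis and processing, was likewise level in the untreated libraries, with 26117, 26340 and 30614 and a difference of 0.23 in sh-CTL + PLK1i. NOLC1, which escorts snoRNPs, had 19101, 18845 and 21404. NCL had 70285, 76758 and 78780, above sh-CTL in both libraries, by 0.13 in sh-METTL3 and by 0.16 with the inhibitor. NPM1, the most abundant of the genes per length, had 99612, 101466 and 98842, with differences of 0.03 and -0.01, the smallest of these proteins in sh-CTL + PLK1i. MYBBP1A, a nucleolar partner of MYB proteins, had 10174, 8784 and 11260, a difference of -0.21 (-0.25 to -0.17) in sh-METTL3 and one of 0.15 with the inhibitor. Of the 6 genes, 5 lay above 0 in sh-CTL + PLK1i and 3 in sh-METTL3, with medians of 0.16 and 0.00.

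The RNA polymerase I genes had the lowest role median in sh-CTL + PLK1i of the roles with several genes, 0.07, with 4 of 5 above 0. POLR1B, the second-largest subunit, had normalized counts of 3888, 4157 and 3823, and UBTF, which binds the ribosomal DNA promoter, had 5836, 5445 and 5885. The intervals of POLR1B and UBTF in sh-CTL + PLK1i included 0. POLR1A, the largest subunit, had 9700, 8920 and 10164, and POLR1C, which RNA polymerase III also uses, had 1981, 1842 and 2168. RRN3, the initiation factor that recruits the polymerase, stood apart with 4362, 4670 and 5412, a difference of 0.31 (0.25 to 0.37) in sh-CTL + PLK1i. RRN3 shares sequence with annotated pseudogenes, of which 2 were listed with 363, 544 and 518 reads in all, so its count is uncertain. In sh-METTL3 the role median was -0.10, with POLR1A, POLR1C and UBTF lower by 0.10 to 0.12 on the log2 scale and RRN3 and POLR1B each higher by 0.10.

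Among the snoRNP proteins both classes of particle were represented. NOP56 and NOP58 belong to the box C/D particles, which guide ribose methylation. NOP56 had normalized counts of 17153 in sh-CTL against 16298 in sh-METTL3, and NOP58 had 8516 and 7827. Their differences were -0.07 (-0.11 to -0.04) and -0.12 (-0.17 to -0.08). The other genes, NHP2, NOP10 and GAR1, belong to the box H/ACA particles, which guide pseudouridylation. Each was higher in sh-METTL3, by 0.16, 0.10 and 0.10, and the interval of GAR1 included 0. The other core proteins, named here after their values were seen, come from the list of 125 genes described below and did not follow their class: of box C/D, SNU13 was at 0.14 (0.08 to 0.19) and FBL at 0.03, and of box H/ACA, DKC1 was at -0.01. Relative to its chromosomal neighbours, whose median was -0.15, NOP56 lay at 0.08. In sh-CTL + PLK1i NOP58 reached 10569 and GAR1 reached 1206 against 971 in sh-CTL, each a difference of 0.31, NOP10 differed by 0.22 and NOP56 by 0.12, while NHP2 had 3874 against 3974, a difference of -0.04 with an interval that included 0.

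In the SSU processome, 14 of 15 genes lay above 0 in sh-CTL + PLK1i, with a median of 0.16. DDX10, an RNA helicase of early small-subunit assembly (ENSG00000178105; GRCh37 chr11:108535785-108811726, plus strand), had normalized counts of 4006, 3445 and 5412. It was thus low in 1 library and high in the other, with differences of -0.22 (-0.28 to -0.15) and 0.43 (0.37 to 0.50). The exception was HEATR1, a large scaffold of the early transcription-linked subcomplex (GRCh37 chr1:236712305-236767816, minus strand), with 10718, 10671 and 10200, a difference of -0.07 (-0.11 to -0.03) after the inhibitor. The other genes of that subcomplex were all above 0: WDR43 by 0.14, WDR75 by 0.20, UTP4 by 0.22 and UTP15 by 0.23. UTP6 and UTP18, of the next subcomplex, differed by 0.23 and 0.12. MPHOSPH10, IMP3 and IMP4 form a unit that joins U3 RNA, and their differences in sh-CTL + PLK1i were 0.26, 0.10 and 0.16.

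In sh-METTL3 that unit was uneven. IMP3 had 1376 normalized counts in sh-CTL against 1538 in sh-METTL3, IMP4 had 3752 and 3074, and MPHOSPH10 had 2284 and 2295. IMP4 was lower by more than counting error, at -0.29 (-0.36 to -0.22), and IMP3 higher, at 0.16 (0.05 to 0.27). RRP9, a protein of the U3 particle, was lower, at -0.18. BMS1, a GTPase of the processome, was the highest of the 55 genes in sh-METTL3, with 8378, 9778 and 9470 and a difference of 0.22 (0.18 to 0.27). BMS1 has 22 annotated pseudogenes, and the 5 listed ones had 1117, 1410 and 1656 reads in all, so its count is uncertain. NOP14 and UTP20, scaffold proteins, differed from sh-CTL by 0.00 and -0.04 in sh-METTL3 and by 0.05 and 0.12 in sh-CTL + PLK1i.

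The late factors of the small subunit had the highest role median in sh-CTL + PLK1i, 0.23, with 8 of 8 genes above 0 and the intervals of 7 above 0. PNO1, the partner of the enzyme that makes the last cut (ENSG00000115946; GRCh37 chr2:68385020-68403370, plus strand), had normalized counts of 3262, 3250 and 4163, level in the untreated libraries and 128% of sh-CTL after the inhibitor, a difference of 0.35 (0.28 to 0.42). The enzyme itself, NOB1, had 6538, 6092 and 7369, a difference of 0.17. RIOK2 and RIOK1, kinases that release factors from the maturing particle, had 2521, 2680 and 3076 for RIOK2 and 1825, 1499 and 2193 for RIOK1. Their differences in sh-CTL + PLK1i were alike, 0.29 and 0.26, and in sh-METTL3 they were of opposite sign, 0.09 and -0.28 (-0.39 to -0.18). LTV1, TSR1 and RRP12, which take part in export and late assembly, differed by 0.28, 0.19 and 0.16 after the inhibitor, and BYSL by 0.06 with an interval that included 0. In sh-METTL3, 7 of the 8 late factors lay below 0, with a median of -0.08. RRP12 was among the lowest of them, with 5182 in sh-CTL and 4470 in sh-METTL3, a difference of -0.21.

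Of the 15 large-subunit factors, 14 lay above 0 in sh-CTL + PLK1i, with a median of 0.18. NOP16, a factor of early large-subunit particles, had normalized counts of 2164, 2462 and 2722 and was higher in both libraries, by 0.19 and 0.33. NOP16 overlaps HIGD2A on the opposite strand, a gene with 1257, 2084 and 1652 reads. Several other genes of the 55, such as NIP7, NHP2 and POLR1C, also overlap a listed gene on the opposite strand. The libraries were stranded, and the part of such overlaps in the counts was not tested. SDAD1, a nuclear factor of late large-subunit steps, had 2417, 2471 and 2994, and GNL2, a nucleolar GTPase, had 4054, 4156 and 4888, differences of 0.31 and 0.27 after the inhibitor. The 3 lowest values, a grouping noticed after the values were seen, belonged to a single complex. BOP1, WDR12 and PES1 work together in the PeBoW complex, and their differences in sh-CTL + PLK1i were -0.05 (-0.10 to -0.0051), 0.05 (-0.01 to 0.11) and 0.08 (0.03 to 0.14), each below the median of the 55 genes. In sh-METTL3 all 3 lay below 0, at -0.06, -0.07 and -0.04.

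RRP1B, a nucleolar protein of ribosomal RNA processing (ENSG00000160208; GRCh37 chr21:45079441-45115960, plus strand), was the lowest of the 55 in sh-METTL3. Its normalized counts were 10005, 8175 and 11549, which put sh-METTL3 at 81.7% and sh-CTL + PLK1i at 115% of the control, and the difference in sh-METTL3 was -0.29 (-0.33 to -0.25). Its paralog RRP1 went the other way in sh-METTL3, with 3204 and 3456, a difference of 0.11, and both were 0.20 to 0.21 higher in sh-CTL + PLK1i. NIP7, a factor of large-subunit processing, had 6417, 5521 and 7371, and MRTO4, a relative of a ribosomal stalk protein, had 4905, 4452 and 5642, low in sh-METTL3 and high after the inhibitor. NOP2, a methyltransferase of ribosomal RNA, and GNL3, the nucleolar GTPase nucleostemin, followed that order with smaller differences, -0.12 and -0.09 in sh-METTL3. DDX18, a helicase, RRS1, of the 5S particle, and PPAN, a factor of large-subunit maturation, each differed from sh-CTL by at most 0.03 in size in sh-METTL3 and were 0.12, 0.18 and 0.17 higher in sh-CTL + PLK1i.

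FTSJ1 is known as a methyltransferase of transfer RNA rather than of ribosomal RNA, and it was kept because it was named with the rest. It had 4763, 4533 and 5132 normalized counts, differences of -0.07 and 0.11, inside the range of the other genes.

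**Figure D3:**
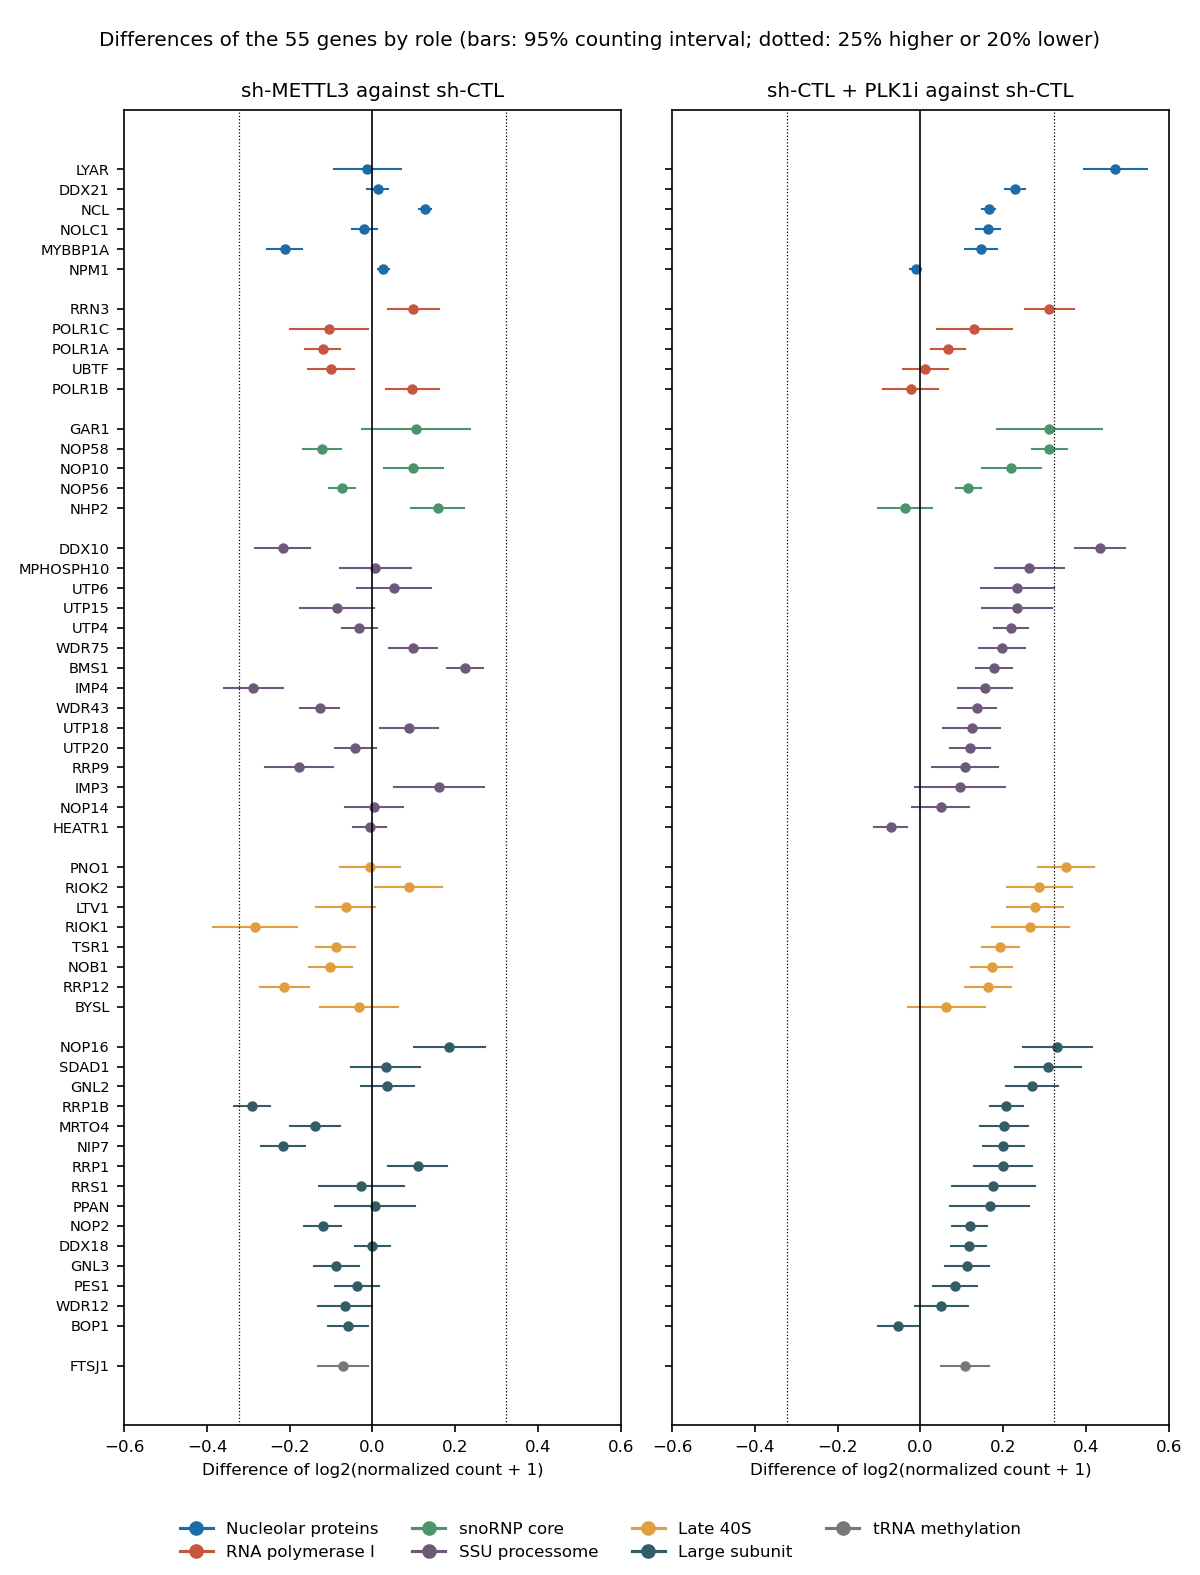
Difference of log2(normalized count + 1) from sh-CTL for each of the 55 genes, grouped by role, in sh-METTL3 (left) and sh-CTL + PLK1i (right); points are the differences, bars the 95% counting intervals and dotted lines 25% higher and 20% lower. In the right panel 50 points lie above 0, up to LYAR at 0.47, and in the left panel 21 do, with no point past a dotted line.

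The threshold of 25%, or 0.32 on the log2 scale, fell inside a run of close values. NOP16 at 0.33 and PNO1 at 0.35 passed it in sh-CTL + PLK1i, while NOP58, GAR1 and RRN3 at 0.31 and SDAD1 at 0.31 did not, and the intervals of all 6 crossed it. LYAR and DDX10 had intervals wholly above it.

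Differences in sh-METTL3 can be shared by whole stretches of a chromosome, so each gene was set beside the median difference of its 24 nearest listed neighbours whose mean reached 50. The 54 genes with a position lay on 18 chromosomes. Over these genes the neighbour medians centred on 0.00 in both comparisons and ran from -0.25 to 0.27 in sh-METTL3 and from -0.11 to 0.13 with the inhibitor. Relative to its neighbours RIOK1 in sh-METTL3 was lower, at -0.38, which is past the 20% rule. NCL, 0.13 above sh-CTL, lay 0.03 below its neighbours, whose median was 0.16. PPAN, close to 0 itself, lay among neighbours with a median of 0.27, and FTSJ1 among neighbours with one of -0.25. The part that shared chromosomal shifts play in these values was not tested further. In sh-CTL + PLK1i, 49 of 54 genes stayed above their neighbours, with a median of 0.16.

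**Figure D4:**
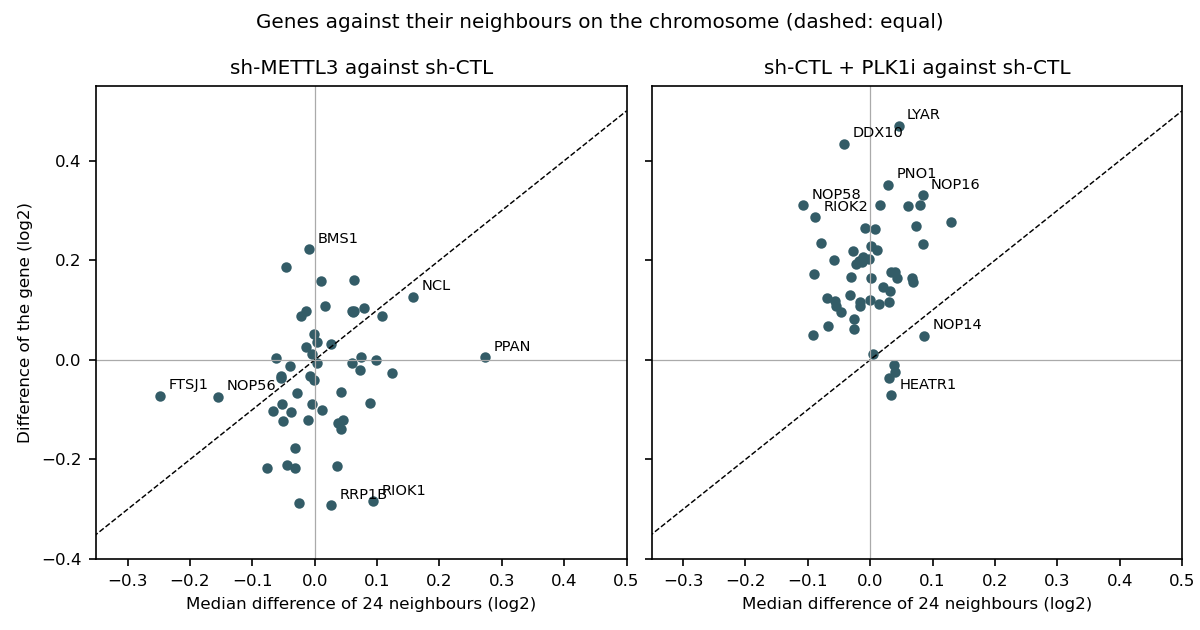
Difference of each of 54 genes from sh-CTL (vertical axis, log2) against the median difference of its 24 nearest neighbours on the chromosome (horizontal axis, log2), in sh-METTL3 (left) and sh-CTL + PLK1i (right); points on the dashed line equal their neighbours. On the left PPAN and FTSJ1 lie among neighbours at 0.27 and -0.25, and on the right 49 of 54 points lie above the line.

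A list of 125 other ribosome biogenesis genes, taken from textbook knowledge, was read in the same way. In sh-CTL + PLK1i, 100 of the 125 lay above 0, with a median of 0.12, and 7 were called higher, 5.60% against 10.2% of all genes and 3.70% of the abundant ones, and 0 lower. Other small-subunit factors had a median of 0.14, with 35 of 39 above 0, other large-subunit factors one of 0.11, with 43 of 50, and other RNA polymerase I genes one of 0.19, with 8 of 10. The RNA exosome, which trims and degrades the precursor, had a median of 0.02 with 7 of 14 above 0. Other snoRNP genes, both core proteins and assembly factors, had one of 0.06 with 7 of 12. Medians thus differed between the groups of this list. The 3 highest were ESF1 at 0.40, a small-subunit factor, NUFIP1 at 0.38, which assembles box C/D particles, and SBDS at 0.37, a late factor of the large subunit. The 3 lowest were PIH1D1 at -0.20, of a snoRNP assembly chaperone, MDN1 at -0.20, a giant ATPase of the large subunit, and TAF1D at -0.16, of the polymerase I selectivity factor.

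In sh-METTL3 the 125 genes had a median of -0.03, with 52 above 0, 4 called higher and 6 lower, which is 3.20% and 4.80% of them against 15.8% and 14.5% of all genes and 6.90% and 9.35% of the abundant genes. RIOK3, another kinase of the RIO family, was lowest, with 2063 reads in sh-CTL and 1861 in the deeper sh-METTL3 library, a difference of -0.48 (-0.57 to -0.39). NOL10, of the small subunit, and ZNHIT6, of box C/D assembly, each differed by -0.43. POLR1E, a subunit of RNA polymerase I, was highest, with 1216 and 2233 reads and a difference of 0.55 (0.44 to 0.65). EFL1, a GTPase that acts with SBDS, and TEX10, of a large-subunit complex, each differed by 0.37, and the neighbours of TEX10 had a median of 0.29.

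MYC itself had 5978, 6362 and 10696 reads. Its normalized count was lower in sh-METTL3, with a difference of -0.24 (-0.29 to -0.19), and higher in sh-CTL + PLK1i, with a difference of 0.50 (0.45 to 0.54). The part of MYC in the values of the 55 genes was not tested.

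Some counts cannot be assigned with certainty. NOP2, PPAN, SDAD1 and UTP4 overlap another listed gene on the same strand, among them a gene without a symbol that had 1444, 2079 and 2515 reads for NOP2, P2RY11 and the readthrough gene PPAN-P2RY11 for PPAN, SNTB2 for UTP4 and NAAA for SDAD1. NPM1 has 49 annotated pseudogenes, of which 6 were listed, with 1448, 1967 and 2174 reads against at least 85424 for NPM1.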

How the data were processed

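RNA sequencing of 3 libraries, 1 per group, was analysed; groups came from the sample titles. The members and gene lists were chosen with earlier results of these data known. The authors deposited log2 values, which followed log2(read count divided by a size factor, plus 4). The submitters' processing notes name FastQC 0.11.9, STAR 2.7.10, RSEM 1.3.3 and hg19, with no role given; RSEM shares ambiguous reads by estimate, so recovered reads may be rounded expected counts. Libraries were made with a stranded poly(A) kit. After the log2 was undone, 1 read was worth 1.17 normalized counts in sh-CTL, 0.927 in sh-METTL3 and 0.921 after the inhibitor, and after division by these steps 100% of values below 500 reads were whole numbers to within 0.1. Symbols were the first word of each symbol cell; UTP4 and NOP14 needed this. Differences used a pseudocount of 1 and genes with a mean of at least 1, which kept all. With 1 library per group no count test was run. Intervals are 95% Clopper-Pearson and cover counting error only, since reads are not independent molecules; they compare libraries, not conditions. The calculation was tested on simulated data. Positions and lengths came from GENCODE 44 on GRCh37, promoters from RefSeq on GRCh38.p14; the builds were not mixed. All 55 genes were named, with METTL3, PLK1, MYC, genes overlapping a member on the same strand, and HIGD2A. From the other list, the 3 highest and 3 lowest in each comparison with at least 50 reads in every library were named. Python 3.11.15, NumPy 2.4.6, pandas 2.3.3 and SciPy 1.17.1 were used.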

Additional observations from a re-analysis of the deposited data

How the results depend on the processing

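Scaling by total reads, by upper quartile or by recomputed median-of-ratios factors, pseudocounts of 4 and 0.5, centring on all genes, removal of a trend with GC content and length, subtraction of 24 neighbours, a minimum mean of 500, no filter, leaving out FTSJ1 and the genes with uncertain counts (8 in all), and, chosen after seeing the data, exact symbol cells (53 genes), left the median of the 55 genes between 0.15 and 0.17 in sh-CTL + PLK1i and between -0.04 and -0.01 in sh-METTL3. That of the 125 other genes stayed between 0.11 and 0.13, and between -0.03 and -0.01. Upper-quartile scaling put 26 of 55 genes above 0 in sh-METTL3. Counts followed the fold: in sh-CTL + PLK1i, 20 genes were higher by at least 15% and 0 at 1.5-fold or 2-fold, and in sh-METTL3, 1 was higher by 15% and 7 were lower by the same fold. Relative to neighbours, 1 gene, RIOK1, was at least 20% lower in sh-METTL3. Of 648 single-gene values per comparison, 20 left their counting interval in each. No paired analysis was possible because each group had 1 library; leaving out a replicate could not be run either. Protein sequence features that had been planned were not run. Counting error limits the intervals most for GAR1, at 833 reads in sh-CTL.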
